A study of Mus musculus with 3 samples.

Results

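The genes described here are the mouse integrins and laminins, in Müller cells profiled by DNase-seq. They were chosen by symbol: every protein-coding gene named Itga or Itgb with a number, a letter or both, leaving out Itgb1bp, Itgb3bp and Itgbl1, and every gene named Lama, Lamb or Lamc with a number. The rule found 38 genes among 21646 protein-coding genes on the autosomes and X, namely 18 integrin alpha genes, 9 integrin beta genes and 11 laminin genes. DNase-seq finds the places in chromatin that are open to cutting by DNase I, a nuclease; they are largely the promoters and enhancers of genes. The samples were 3 biological replicates of 1 group, primary Müller cells of B6NCrl mice at postnatal day 12, with both sexes pooled. The labels give each replicate a biosample of its own and the same donor, name an extraction protocol for cultured cells, and state no sort and no comparison, so the question is which of these genes had accessible sites and in how many replicates.

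Müller cells are the radial glia of the retina. Their endfeet rest on the inner limiting membrane, a basement membrane that lines the vitreous side of the retina. Laminins are trimers of an alpha, a beta and a gamma chain, secreted into basement membranes. Integrins are cell surface receptors made of an alpha and a beta chain: the alpha chain largely sets the ligand, such as collagen, laminin, the RGD peptide of fibronectin and vitronectin, or the cell adhesion molecules that leukocytes meet, and the beta chain carries most of the link to talin, kindlin and actin. Itgb2 and its alpha partners are restricted to leukocytes, which in the retina are mainly microglia.

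A peak is a stretch of about 150 bp that the authors' deposited list gives with a score, a whole number between 1 and 150 that is not defined in the sources used here. Overlapping peaks of the 3 replicates were merged, and a merged region with a peak of every replicate is called a shared site. A promoter is called open where a shared site comes to within 1 kb of a start of the gene's protein-coding transcripts; the word describes accessibility, not transcription. Shared sites farther from every start are called distal, and each was assigned by distance alone to the gene whose start is nearest, up to 100 kb away; the gene that a site acts on is unknown. With 1 group there was no contrast to test. Counts over the 38 genes stand, where both were made, beside the same counts over all genes, with no test. Replicates 1, 2 and 3 held 300269, 281185 and 184544 peaks. Read depth is unknown, and scores were not compared between replicates by a test. Since the replicates share a donor label, an SD here may hold technical as well as biological spread. All 8 Müller glia markers (Rlbp1, Glul, Sox9, Aqp4, Slc1a3, Vim, Kcnj10, Lhx2) had an open promoter, led by Sox9 and Lhx2. Of all protein-coding genes 67.1% had one. Of 14 markers of microglia and macrophages, 14, 14 and 3 had a promoter peak in replicates 1, 2 and 3.

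The sequences below are those of accessible sites to which the results return, read from the GRCm38.p6 genome (mm10 coordinates), 5′ to 3′ along the reference strand, cut where the untranslated part of a transcript begins. The first 7 are shared sites of members with different roles: 2 promoters of beta chains, the strongest distal sites of Itgb5, Itga9 and Lama5, a site upstream of Lamc1 and an intronic site of Itga2b. Capitals mark matches, on either strand, to consensus words for TEAD (GGAATG), AP-1 (TGANTCA), SOX (ACAAAG), NFY (CCAAT), the NFI part site (TTGGCA) and the E-box (CAGCTG). Words for PU.1 (GAGGAAGT), ETS (CCGGAAGT), RUNX (TGTGGTT), SP and KLF (GGGGCGGGG) and homeobox factors (TAATTA) were searched as well. A match describes the letters of the site and does not show that a factor was bound.

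Itgb1 promoter (TEAD, SOX), chr8:128685536-128685653: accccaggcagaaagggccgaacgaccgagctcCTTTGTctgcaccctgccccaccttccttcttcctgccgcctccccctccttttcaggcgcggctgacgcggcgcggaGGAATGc
Itgb8 promoter (NFY, SOX), chr12:119238803-119238925: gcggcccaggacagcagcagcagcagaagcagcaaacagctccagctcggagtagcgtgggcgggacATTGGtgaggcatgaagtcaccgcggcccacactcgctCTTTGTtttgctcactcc
Itgb5 intron (TEAD), chr16:33916856-33917065: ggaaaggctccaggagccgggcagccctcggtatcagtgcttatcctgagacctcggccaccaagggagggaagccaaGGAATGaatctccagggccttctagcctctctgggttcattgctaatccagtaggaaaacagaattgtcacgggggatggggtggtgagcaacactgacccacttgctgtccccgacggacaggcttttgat
Itga9 intron (AP-1, TEAD), chr9:118678556-118678725: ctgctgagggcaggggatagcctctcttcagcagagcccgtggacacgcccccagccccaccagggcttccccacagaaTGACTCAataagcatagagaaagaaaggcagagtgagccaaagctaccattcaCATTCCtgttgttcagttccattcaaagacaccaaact
Lama5 intron (NFY, E-box), chr2:180214696-180214885: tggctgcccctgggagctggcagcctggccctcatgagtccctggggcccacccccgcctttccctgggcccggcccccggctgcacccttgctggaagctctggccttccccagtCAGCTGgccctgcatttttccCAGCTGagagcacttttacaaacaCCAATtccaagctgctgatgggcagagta
Lamc1 upstream (AP-1), chr1:153333736-153333945: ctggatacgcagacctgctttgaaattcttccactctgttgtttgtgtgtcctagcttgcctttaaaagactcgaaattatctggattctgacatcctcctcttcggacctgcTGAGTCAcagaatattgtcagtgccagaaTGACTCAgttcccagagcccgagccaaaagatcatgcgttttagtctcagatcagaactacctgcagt
Itga2b intron (AP-1, NFI, SOX, NFY; NFI and NFY overlap), chr11:102466136-102466305: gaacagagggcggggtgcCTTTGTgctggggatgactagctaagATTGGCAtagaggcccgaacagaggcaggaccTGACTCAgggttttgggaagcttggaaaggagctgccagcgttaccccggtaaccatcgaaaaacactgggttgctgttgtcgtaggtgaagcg

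The next 4 are sites of leukocyte integrins that had a peak in replicates 1 and 2 and none in replicate 3. They are the strongest such site at the promoters of Itgal and Itgax, and the distal sites of Itgam and Itgb2 that hold the PU.1 word. Capitals mark that word, GAGGAAGT or its reverse complement, in Itgal, Itgam and Itgb2, and AP-1 in Itgax.

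Itgal promoter (PU.1), chr7:127296196-127296259: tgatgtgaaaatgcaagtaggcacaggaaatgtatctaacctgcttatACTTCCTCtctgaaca
Itgam intron (PU.1), chr7:128065676-128065845: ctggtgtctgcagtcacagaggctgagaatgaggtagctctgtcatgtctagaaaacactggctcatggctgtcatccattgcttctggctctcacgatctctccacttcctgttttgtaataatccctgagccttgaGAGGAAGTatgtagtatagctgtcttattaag
Itgax promoter (AP-1), chr7:128129436-128129546: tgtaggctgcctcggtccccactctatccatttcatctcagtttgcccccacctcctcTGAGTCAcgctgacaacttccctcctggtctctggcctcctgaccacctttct
Itgb2 intron (PU.1), chr10:77548788-77548905: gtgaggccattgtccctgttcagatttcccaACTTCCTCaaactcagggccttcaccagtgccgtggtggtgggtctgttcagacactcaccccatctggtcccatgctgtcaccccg

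Promoters of the integrins and laminins were mostly open. An open promoter was found for 30 of the 38 genes (78.9%), against 67.1% of all protein-coding genes. All 11 laminin genes were open. Of the 27 integrin genes 19 were open (70.4%), close to the share of all genes. A promoter peak was present in replicate 1 for 34 of the 38 genes (72.6% of all genes), in replicate 2 for 33 (71.8%) and in replicate 3 for 31 (69.7%). No peak lay near any start of Itga2b, Itgae and Itgb2l, 3 of 38, where 25.5% of all genes had none. The other 5 genes without an open promoter were Itgad, Itgam, Itgax, Itgb6 and Itgb7. Among the 30 open members, the strongest shared promoter site was centred within 100 bp of a start in 20, and at a median of 53 bp. This distance was not measured over all open genes.

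**Figure D1:**
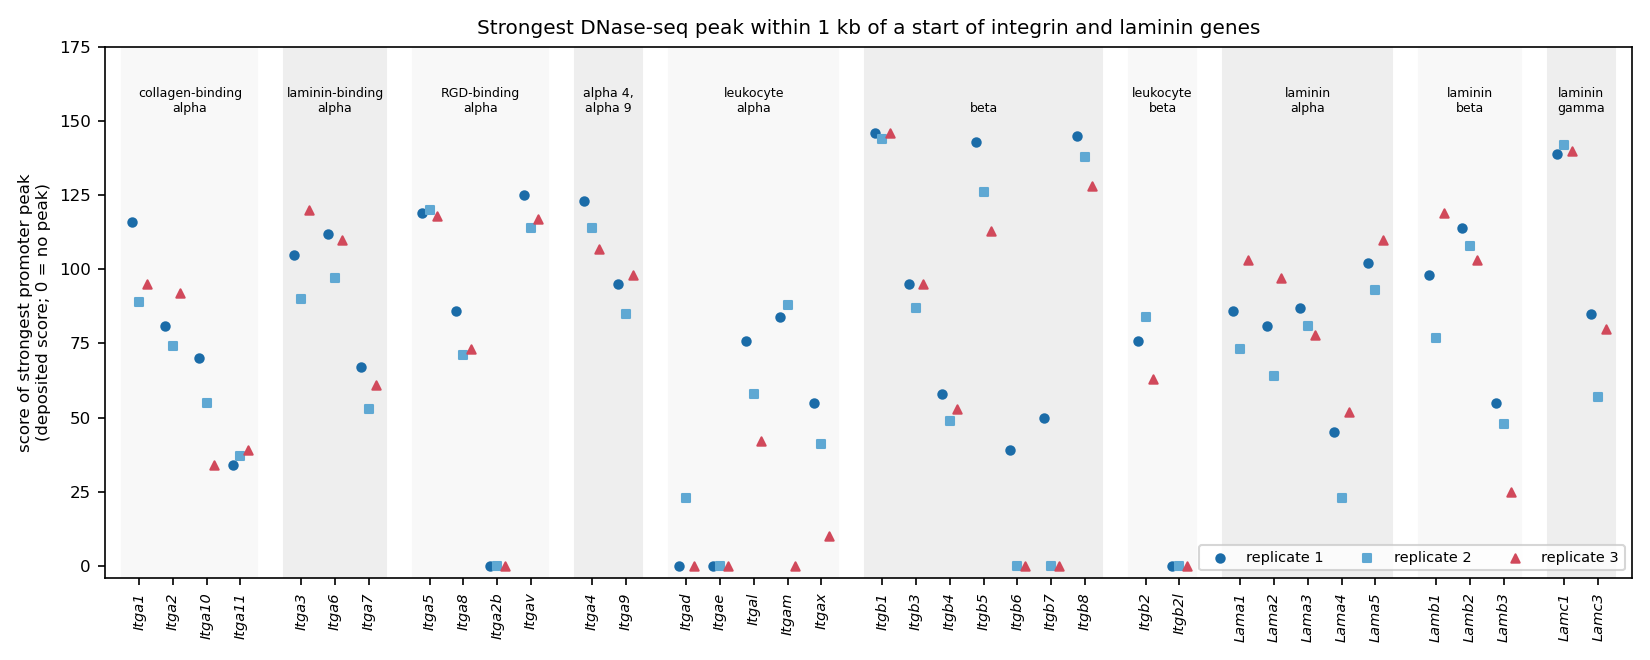
Score of the strongest DNase-seq peak within 1 kb of a start (y axis; deposited score, with 0 for no peak) for integrin and laminin genes (x axis, grouped by role) in replicates 1, 2 and 3. Itgb1, Itgb8 and Lamc1 lie at 128 or more in every replicate, and Itga2b, Itgae and Itgb2l lie at 0 in all 3.

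Strongest promoter scores of members with a peak were spread widely, with a median below that of all genes with a peak. Over members with a peak the median strongest promoter score was 86.5, 81 and 95 in replicates 1, 2 and 3 (n = 34, 33 and 31), against 123, 115 and 113 over all genes with a peak (n = 15724, 15542 and 15082). The CpG content differed between open members and the others: the observed to expected CpG ratio in 1000 bp round the outermost start had a median of 0.597 over the 30 open members and 0.228 over the 8 others, beside 0.706 and 0.175 over all open and other genes. Lamb3 was open at a ratio of 0.124, and Itgad was not open at 0.566.

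Itgb1, the beta chain that pairs with 12 of the alpha chains considered here, had the strongest promoter of all members. Its promoter peak scored 146, 144 and 146 in replicates 1, 2 and 3, at or above 96.3%, 95.6% and 99.7% of the strongest promoter peaks of all genes with one. The 3 values lie within 2 of each other and near the top of the scale, where the score has little room to differ. The site is the Itgb1 promoter printed above in part, centred 34 bp upstream of the start. Itgb8, which pairs with the alpha V chain to bind latent TGF-beta, had 145, 138 and 128. Itgb5, another alpha V partner and a vitronectin receptor, had 143, 126 and 113, and these scores belong to an inner start, described below. Both were lowest in replicate 3 and stayed above 100 in every replicate.

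The other beta chains ranged lower. Itgb3, the partner of alpha V and of the platelet chain Itga2b, scored 95, 87 and 95. Itgb4, which pairs with Itga6 in the hemidesmosomes of epithelia, scored 58, 49 and 53. Both had peaks in all replicates and a spread of under 10 between them. Itgb6, an epithelial partner of alpha V, had a single weak peak of 39 in replicate 1, and Itgb7, the partner of Itga4 and Itgae on lymphocytes, a single one of 50 in the same replicate. Of the 7 beta chains other than Itgb2 and Itgb2l, all 7 had a promoter peak in replicate 1 and 5 of them in each other replicate.

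Alpha chains with RGD ligands split into 3 open genes and 1 without a peak. Itgav, the alpha V chain, scored 125, 114 and 117, and Itga5, the fibronectin receptor chain, 119, 120 and 118. Itga8, which binds nephronectin, was lower at 86, 71 and 73. Itga2b, the platelet fibrinogen receptor chain, had no promoter peak in any replicate.

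All 3 laminin-binding alpha genes were open. Itga6 scored 112, 97 and 110 and Itga3 scored 105, 90 and 120, while Itga7, best known from muscle, scored 67, 53 and 61. The ranges of Itga3 and Itga6 overlap, and both lie above all values of Itga7. The 4 collagen-binding genes were open as well, with Itga1 at 116, 89 and 95 and Itga2 at 81, 74 and 92. Itga10 and Itga11, known from cartilage and mesenchyme, were weaker, at 70, 55 and 34 and at 34, 37 and 39. Itga4 and Itga9, which share ligands such as VCAM-1 and tenascin, scored 123, 114 and 107 and 95, 85 and 98.

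Every laminin chain had an open promoter. Lamc1, the gamma chain of most laminins, scored 139, 142 and 140, the most even and highest of the family. Lamb2, the beta chain of the inner limiting membrane and of synapses, scored 114, 108 and 103, and Lamb1 scored 98, 77 and 119. Lama5 scored 102, 93 and 110, Lama1 86, 73 and 103, Lama2 81, 64 and 97, and Lama3 87, 81 and 78, and the ranges of Lama1, Lama2 and Lama3 overlapped. Lamc3, a gamma chain known from retina and brain, scored 85, 57 and 80. The lowest were Lama4 (45, 23 and 52), a chain of vessel walls, and Lamb3 (55, 48 and 25), a chain of epithelial laminin.

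Because the receptors and laminins work as complexes, the calls were also read by textbook pairing. Both subunits were open in 17 of 24 integrin pairs, and both had a promoter peak in 21, 20 and 18 pairs in replicates 1, 2 and 3. The 17 include all 12 pairs with Itgb1, Itgav with Itgb3, Itgb5 and Itgb8, Itga6 with Itgb4, and Itgal with Itgb2. The 7 others lacked Itgb6, Itgb7, Itga2b, Itgae, Itgam, Itgax or Itgad. All 11 laminin trimers considered had every chain open, which follows from every laminin gene being open and adds nothing to it. Chains shared by many pairs, above all Itgb1 and Lamc1, count in each of them. Accessible promoters do not show that the proteins or complexes were made.

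Most members have several annotated starts, and the accessible one was often a single one of them. Starts of a gene within 500 bp of each other were grouped, which gave 60 start groups, of which 31 had a shared site within 500 bp. Of the 19 members with more than 1 start group, 2 had a shared site at each group (Itgb5 among them), 14 at some and 3 at none (Itgad, Itgb6 and Itgb7). Start groups were not counted over all genes, so these numbers cannot be read as a trait of the members. In Itgb5 the outermost start scored 101, 79 and 98 and an inner start (chr16:33891941) scored 143, 126 and 113, higher in every replicate. The 500 bp window is narrower than the 1 kb used for open promoters. Lamb3 had no shared site within 500 bp of its outermost start, but one of 55, 48 and 25 centred 0.66 kb downstream of it. At its inner start (chr1:193301993) a weaker one scored 41, 35 and 23.

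Distal sites were more numerous round the integrin and laminin genes than round the median gene. The 38 genes had 368 shared distal sites in all, with 735, 747 and 449 peaks of replicates 1, 2 and 3 (644 ± 169, SD, n = 3). At least 1 shared distal site was found for 34 of the 38 (89.5%), against 69.8% of all genes. The median was 8 sites over members and 2 over all genes. At least 10 sites were found for 18 members (47.4%) and 12.5% of all genes, and at least 20 for 4 members (10.5%) and 2.52% of all genes. The length of genome given to each gene was also greater, with a median of 57.7 kb over members and 43.2 kb over all genes. Per 100 kb of that length the median was 8.87 sites over members and 4.38 over all genes. By family, the median was 12 sites for laminins, 10 for the 19 integrins outside the leukocyte group and 1.5 for the 8 leukocyte integrins.

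**Figure D2:**
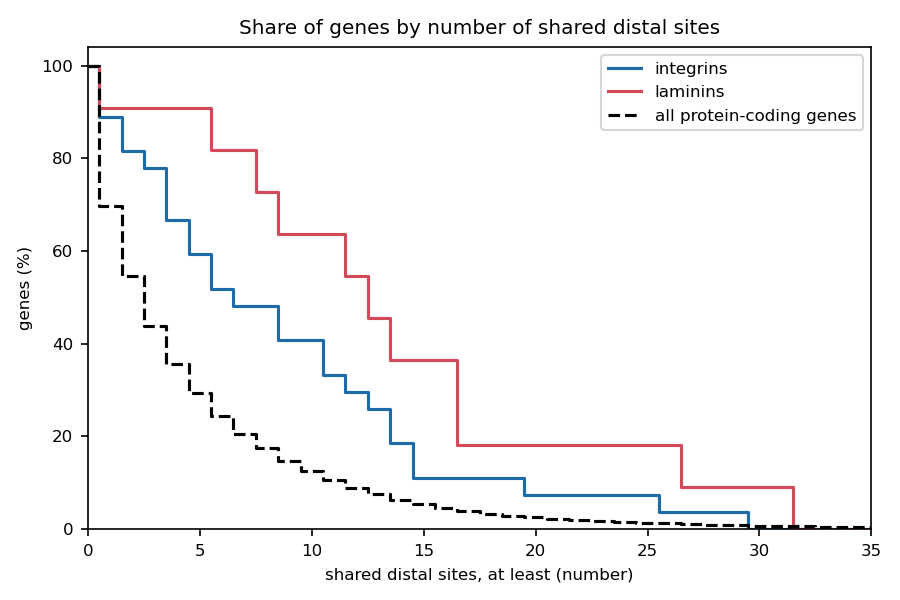
Share of genes (y axis, percent) with at least a given number of shared distal sites (x axis) for integrins (n = 27), laminins (n = 11) and all protein-coding genes (n = 21646). The 2 families lie above all genes from 1 to 29 sites, and at 10 sites the shares are 40.7%, 63.6% and 12.5%.

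Among the members with the most distal sites were Lama2, Itga9, Itgb6 and Itgb5. Lama2, the alpha chain of muscle and nerve laminin, had 31 shared sites, with 52, 53 and 37 peaks in replicates 1, 2 and 3 (47.3 ± 8.96, SD, n = 3). Itga9 had 29, from 64, 61 and 37 peaks (54 ± 14.8). Both had the fewest peaks in replicate 3. Itgb6 had 25 shared sites, from 45, 38 and 28 peaks (37 ± 8.54), more than 98.6% of all genes, although its promoter was not open. Itgb5 had 19, from 37, 41 and 22 peaks (33.3 ± 10.02).

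Per length of genome the order was different. Lama5 had 16 shared sites in a territory of 40945 bp, 39.1 per 100 kb, the highest of all members and with 16, 19 and 22 peaks the only one with most peaks in replicate 3. Itgb3 followed with 24.8 per 100 kb (12 sites), Lamc3 with 22 (11 sites) and Itga3 with 20.5 (8 sites). Lama2 had 7.83 and Itga9 10.4 per 100 kb, with territories of 396000 and 279130 bp. Lamb2, Itgad, Itgam and Itgax had no shared distal site.

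**Figure D3:**
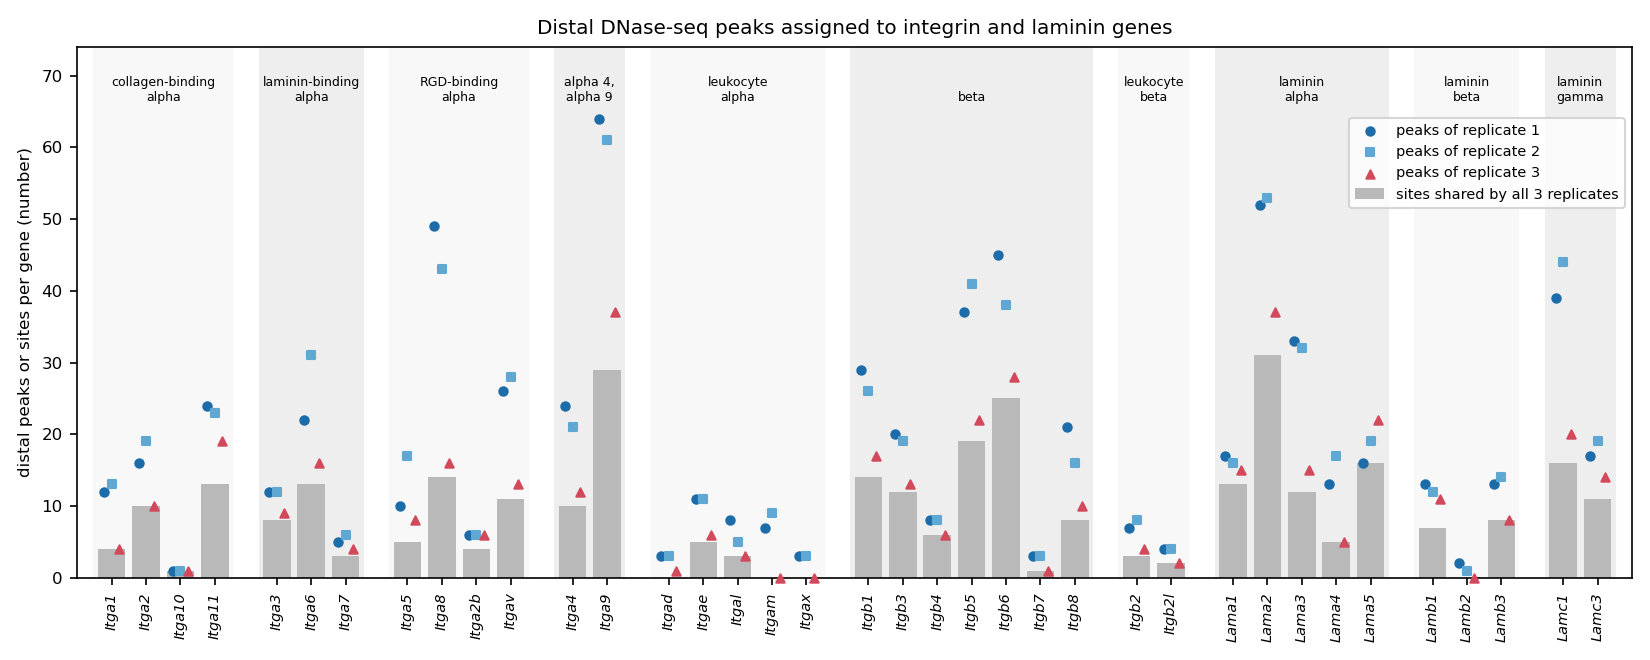
Number of distal peaks of each replicate (points) and of distal sites shared by all 3 (grey bars) on the y axis, for integrin and laminin genes on the x axis, grouped by role. Lama2 and Itga9 have the highest bars, at 31 and 29, and Itgam and Itgax have peaks of replicates 1 and 2 only.

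Most distal sites lay inside the genes they were given to. Of the 368, 230 (62.5%) were centred in an intron of the gene, 6 (1.63%) in an exon and 132 (35.9%) outside it. These shares were not counted over all genes, so they cannot be read as a trait of the members. In Itgb1 the sites spread to both sides of the start, and the strongest of them, at chr8:128654696-128654905, upstream of the gene, scored 133, 118 and 110. In Itgb5, Itga9 and Itgb6 strong sites stood along the introns.

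**Figure D4:**
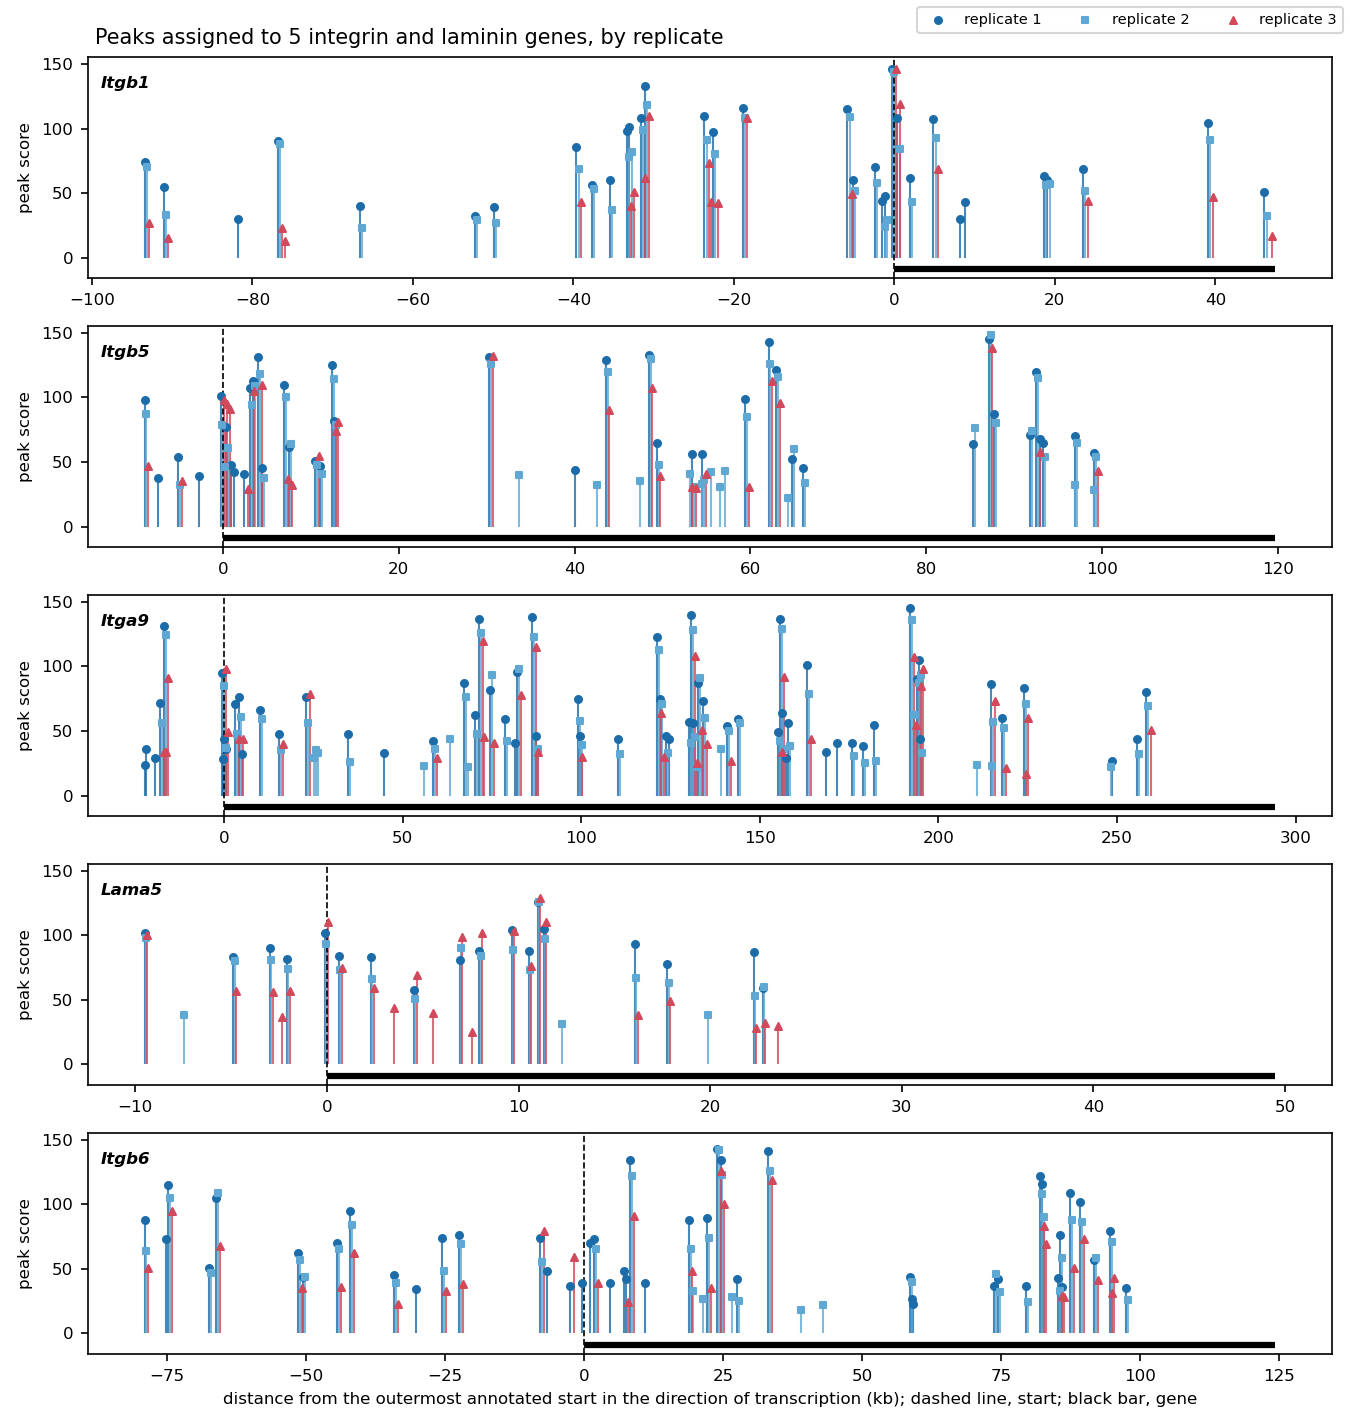
Score of every peak given to Itgb1, Itgb5, Itga9, Lama5 and Itgb6 (y axis, deposited score) by distance from the outermost start (x axis, kb, in the direction of transcription), by replicate; the markers of a site are drawn side by side for legibility. Itgb1 has its tallest peaks at the start, at 144 to 146, and Itgb6 has no peak of replicates 2 and 3 within 1 kb of the start and distal peaks of up to 143.

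The strongest distal site of any member lay in Itga2b, whose promoter had no peak. It covered chr11:102467116-102467285, 2683 bp past the coding start, scored 142, 142 and 144, and ranked 23 by its lowest score among 86090 shared distal sites. It spans the annotated start, at 102467199, of a transcript of the gene that GENCODE classes as a processed transcript and not as protein-coding. Over all members 6 of 368 distal sites (1.63%) spanned such a noncoding start, against 1.49% of all shared distal sites. A neighbouring intronic site of Itga2b, printed above, scored 139, 131 and 123. Of 4 platelet and megakaryocyte markers, only Gp9 had an open promoter, and Pf4, Gp1bb and Ppbp had no promoter peak in replicate 3; the summed strongest scores of the 4 were 118, 123 and 32. The part of platelets or megakaryocytes in the Itga2b sites was not tested.

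The next strongest were in Itgb5 and near Itgb4. The Itgb5 site printed above, chr16:33916856-33917065, scored 145, 148 and 138 and ranked 113. Another Itgb5 intron site, at chr16:33860076-33860225, scored 131, 126 and 132. The site given to Itgb4, at chr11:115956636-115956805, scored 143, 133 and 135 and lies upstream of Itgb4, inside Sap30bp. Itgb6 had an intronic site of 143, 142 and 126 at chr2:60698196-60698405 and another of 141, 126 and 119 at chr2:60689136-60689305. Scores of these sites were 119 or more in each replicate, whereas the starts of Itgb6 had a single peak, of 39.

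The Lama5 intron site printed above, with 2 E-box words and an NFY word, scored 126, 126 and 129, and the Itga9 intron site, with an AP-1 and a TEAD word, scored 137, 126 and 120. All of the distal sites described from Itga2b on are among the 10 strongest of the family. The site upstream of Lamc1, with 2 AP-1 words, is within 1 kb of the start, counts as a promoter site and scored 132, 122 and 87, lower in replicate 3 than the site next to the start.

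The word for AP-1 had a higher share in integrin sites than in all shared distal sites, and laminin sites were close to all sites. Motifs were searched in 150 bp round the centre of each site. AP-1 stood in 94 of 368 sites (25.5%) and in 20.6% of all 86090 shared distal sites, and TEAD in 80 (21.7%) and 19.0%. The AP-1 share was 29.1% in integrin sites and 20% in laminin sites. The NFI part site was as common in both, at 17.1%, and SOX near so, at 16% and 16.6%. RUNX was less common, in 12 (3.26%) against 6.73%, as was CTCF, in 9 (2.45%) against 4.86%. At the 52 shared promoter sites, TEAD stood in 7 (13.5%) against 8.19% of all, AP-1 in 6 (11.5%) against 5.71%, and NFY in 6 (11.5%) against 22.7%. Counts at promoters are small, and the sites of 1 gene are not independent.

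Many sites of the leukocyte integrins were found in replicates 1 and 2 and not in replicate 3. These are Itgal, Itgam, Itgax and Itgad, the alpha partners of Itgb2, with Itgae, Itgb2 and Itgb2l; Itgb7 is added here as a lymphocyte beta chain. Of these 8 genes, 2 were open, Itgal and Itgb2. Itgam, the alpha chain of the complement receptor on microglia and macrophages, had a promoter peak of 84 in replicate 1, 88 in replicate 2 and none in replicate 3. It was the only member with that pattern, 1 of 38 genes, where 3.02% of all genes had it. No member had a promoter peak in replicate 3 alone, where 0.827% of all genes did. The Itgam site at the start itself scored 49, 51 and 0, and the stronger one was centred 0.93 kb downstream of the outermost start.

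Itgax, known from dendritic cells and activated microglia, had promoter peaks of 55, 41 and 10, and the weak peak of replicate 3 did not overlap the others. Itgal, the leukocyte chain that binds ICAM-1, scored 76, 58 and 0 at its outermost start, and its open call rests on an inner start, at chr7:127309518, with 75, 51 and 42. Itgb2, the beta chain common to them, had a peak at its start in replicate 2 only, of 51. Its open call rests on an intronic site centred 0.92 kb downstream of the outermost start, at 76, 84 and 63. In replicate 3 no peak lay within 500 bp of the outermost starts of Itgam, Itgal and Itgb2. Itgad had 1 peak of 23, in replicate 2, and Itgae and Itgb2l had none.

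**Figure D5:**
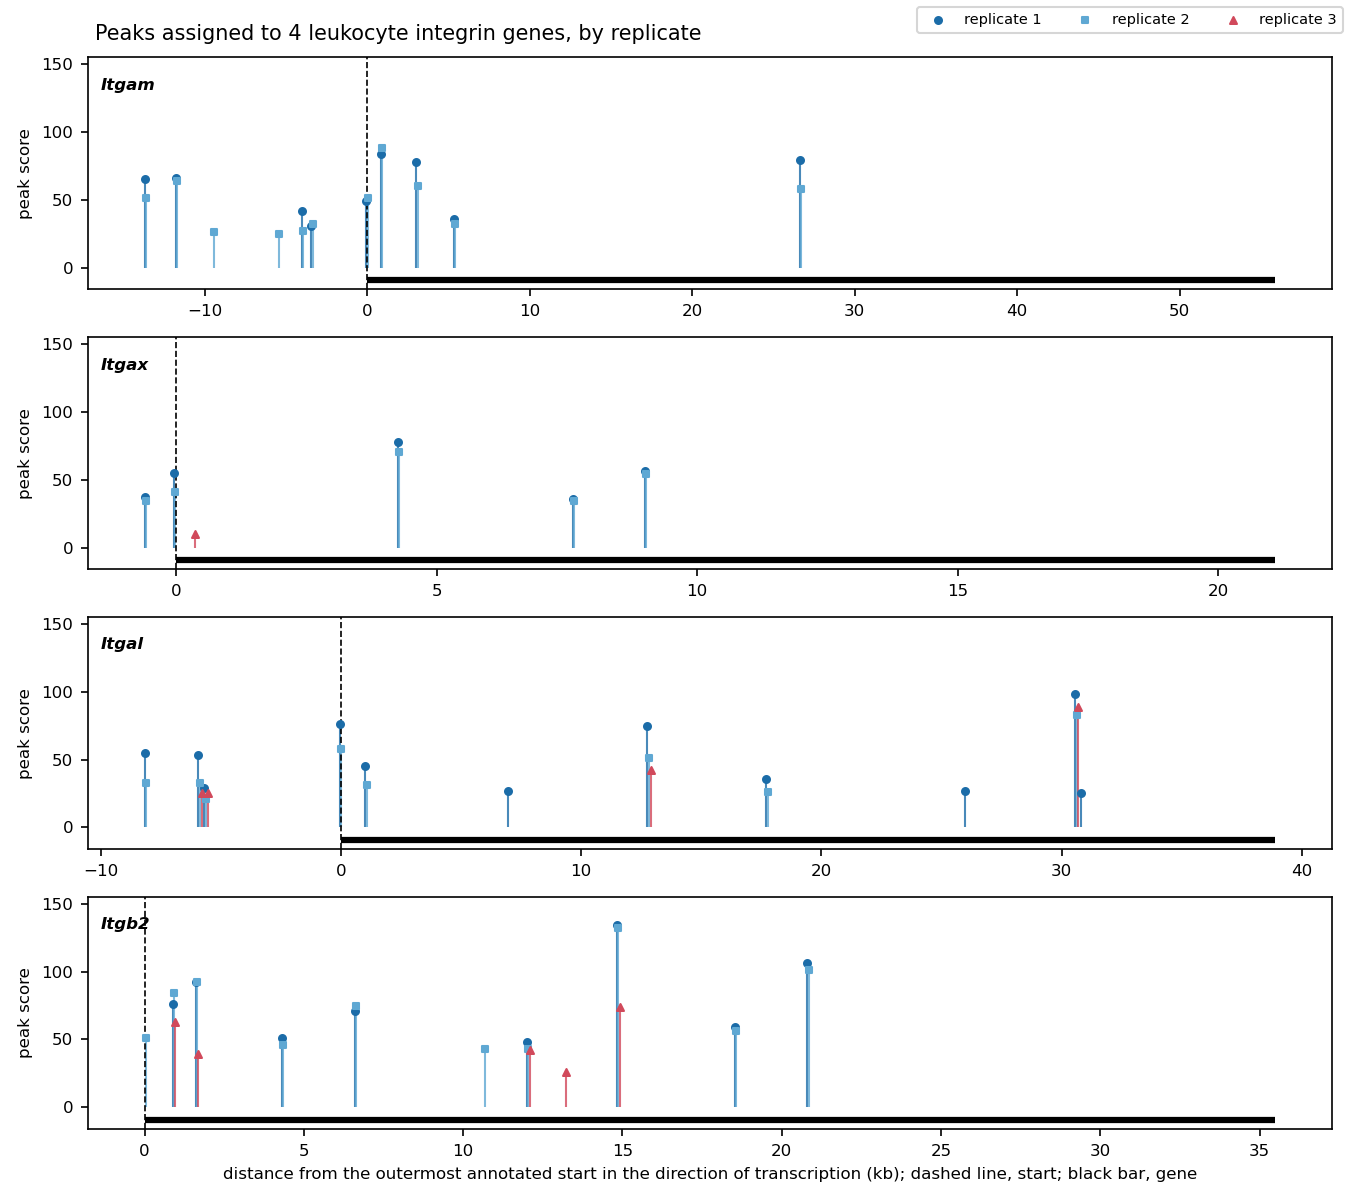
Score of every peak given to Itgam, Itgax, Itgal and Itgb2 (y axis, deposited score) by distance from the outermost start (x axis, kb, in the direction of transcription), by replicate; the markers of a site are drawn side by side for legibility. Itgam has peaks of replicates 1 and 2 and none of replicate 3, and Itgax has 1 weak peak of replicate 3, of 10.

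Distal regions of Itgam and Itgax showed the same split. Itgam had 9 distal regions, 7 of them with peaks of replicates 1 and 2 and none with a peak of replicate 3, and all 3 distal regions of Itgax were found in replicates 1 and 2 only. Over the 8 leukocyte integrins, 26 of 52 distal regions (50%) had peaks in replicates 1 and 2 only, against 215 of 817 (26.3%) for the other members and 27.2% for all genes. The share was 25% for Itgal (2 of 8) and 44.4% for Itgb2 (4 of 9). Outside the group, Itga8 had 45.1% (23 of 51). A shared site made up 14 of the 52 (26.9%), 354 of the 817 (43.3%) and 39.8% for all genes. When every replicate was cut to its strongest 184544 peaks, an alternative chosen after seeing the data, replicates 1 and 2 only held 16 of 40 (40%), 103 of 599 (17.2%) and 18.4%. Itgb2 had sites of both kinds: one in an intron scored 134, 132 and 74, and another 106, 101 and 0. The second is a strong peak of 2 replicates that the third lacks. Among all distal regions with a score of 80 or more in replicates 1 and 2, 5.87% had no peak in replicate 3. Of such regions, 1 of 7 of the leukocyte integrins and 10 of 156 of the other members had none. At a score of 40 or more these counts were 14 of 23 and 83 of 389, against 24.5% of all regions.

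The word for PU.1, a factor encoded by Spi1 and known from myeloid cells, was found in several of these regions. Of the 26 distal regions of leukocyte integrins with peaks in replicates 1 and 2 only, 6 (23.1%) held it, against 3.75% of all such regions. The E-box stood in as many, 6 (23.1%) against 12.0%. RUNX stood in 5 (19.2%) against 8.21%, AP-1 in 3 (11.5%) against 20.4% and TEAD in 1 (3.85%) against 15.4%. In the 14 shared distal sites of these genes the PU.1 word stood in 0, against 1.31% of all shared distal sites. At so low a share, 14 sites are too few for this 0 to be set against the 6 of 26. In the shared distal sites of all integrins it stood in 6 of 223 (2.69%). In the sites printed above the PU.1 word stands 5′ of the Itgal start and in introns of Itgam and Itgb2. The Itgam and Itgb2 sites were chosen for holding it. These counts are of 8 genes, 3 of them in 1 cluster on chromosome 7, where 11.1 kb separates Itgam from Itgax and 3.72 kb Itgax from Itgad.

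Markers of microglia and macrophages mostly had a promoter peak in replicates 1 and 2 and none in replicate 3. Of the leukocyte integrins, only Itgam had that promoter pattern, and Itgal and Itgb2 kept a promoter peak in replicate 3. The summed strongest promoter scores of the markers were 1151 in replicate 1, 1091 in replicate 2 and 151 in replicate 3, with 14, 14 and 3 of 14 genes having a peak. Spi1 scored 101, 92 and 0, Cx3cr1 83, 80 and 0, C1qa 89, 69 and 0, Csf1r 52, 54 and 0, and Aif1 58, 57 and 0; C1qb, C1qc, Fcer1g, Ptprc, Trem2 and Tyrobp were also at 0 in replicate 3. Open promoters were those of Cd68 (124, 109 and 44), P2ry12 (88, 83 and 39) and Tmem119 (76, 63 and 68). Markers of T cells (Cd3e, Cd3g, Cd2, Lck and Cd8a) lacked a promoter peak in all replicates. The part of microglia or macrophages in the leukocyte integrin sites was not tested. In bulk samples, fewer cells of a type and less accessibility per cell cannot be told apart.

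Promoters of genes listed as markers of other cells that carry integrins and laminins were open in part. An open promoter does not show that such cells were present. Over all genes 67.1% were open, and the lists are too short to be set apart from that share. For endothelium, 3 of 6 were open (Pecam1, Kdr and Cldn5), Tie1 and Emcn had no peak, and Cdh5 scored 78, 67 and 0; the sums were 345, 301 and 211. For pericytes and mural cells 4 of 5 were open, all but Des, with sums of 360, 296 and 290. All 4 astrocyte markers were open, with sums of 290, 248 and 297. Their part in the accessibility of chains such as Lama4, Itga1 or Itgb4 was not tested.

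Genes that act with the integrins inside the cell were open almost throughout, where 67.1% of all genes were open. Of 30 genes of the adhesion machinery, such as talins, kindlins, vinculin and the ILK complex, 29 were open, led by Vcl (vinculin; 147, 143 and 148) and Zyx (zyxin; 149, 144 and 146). The exception was Fermt1, the epithelial kindlin, at 33, 0 and 39. The leukocyte kindlin Fermt3 scored 78, 69 and 0 within 1 kb of its start, and its open call came from a merged region that reaches into that window. Of 15 basement membrane genes and laminin partners 13 were open, led by Dag1, which encodes dystroglycan, at 144, 139 and 142 and Agrn, which encodes agrin, at 135, 134 and 126. Nid1 had no promoter peak, and the peaks of Col4a6 (47, 38 and 55) did not form a shared site.

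Among 17 other integrin ligands 15 were open, beside 67.1% of all genes. They were led by Ccn2 (138, 137 and 139) and Ccn1 (142, 139 and 136), matricellular proteins. Vtn, vitronectin, had no peak and Icam2 scored 0, 27 and 20.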

How the data were processed

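DNase-seq was measured in 3 replicates of 1 group. Per the labels, the build is mm10. The authors deposited 1 peak list and 1 hotspot list per replicate, which were not pooled. Each peak has a deposited score, and each hotspot a deposited −log10 q that runs from 1.3 to 100. The sources used here name neither aligner nor peak caller, and depth is unknown, so no interval can be given. Repeated peak positions were removed, 21, 20 and 23 in replicates 1, 2 and 3.

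Peaks were merged at an overlap of 1 bp or more. Starts were those of protein-coding transcripts of GENCODE release M21 (1 gene per symbol), and sequences came from GRCm38.p6, the RefSeq genome whose chromosomes are those of mm10. Python 3.11.15, pandas 2.3.3, numpy 2.4.6, pysam and samtools 1.23.1 were used, and the merging and assignment were tested on simulated data. No test was run: there is 1 group, and the members and lists were chosen with earlier results of these data known. Members are named, with those of the 10 strongest distal sites by lowest score, and of each list the genes without an open promoter (up to 6) and the 2 with the highest lowest-replicate score; further marker and list genes (such as C1qb, Cd68 and Fermt3) were named after their values were seen. A few genes that this rule covers are counted in totals and not reported here by name. Alternatives changed the promoter window, distal limit, overlap, number of peaks, hotspots for peaks and the replicates used.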

Additional observations from a re-analysis of the deposited data

How the results depend on the processing

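The number of members with an open promoter was 30 and ran from 26 to 32 over all alternatives. It was 26 with the strongest 50% of peaks (Itga10, Itga11, Lama4 and Lamb3 lost), 28 with every replicate cut to its strongest 184544 peaks (Itga11 and Lama4 lost), 29 with a 500 bp window (Itgb2 lost), with the outermost start only (Itgal lost) and with an overlap of 75 bp (Lama4 lost), and 32 with a 2500 bp window (Itgae and Itgb6 gained). Leaving out a replicate gave 30 to 32, with Itgam and Itgax gained without replicate 3. The 368 distal sites became 208 with the strongest 50% of peaks and 377 to 608 when a replicate was left out, the highest without replicate 3; other settings gave 308 to 430. The median per member stayed above that of all genes in each setting run, from 4 against 1 to 13 against 3. Of the 60 start groups, 26 to 34 had a shared site. Without replicate 3, 26 of the 38 members' distal counts moved by more than the spread between replicates. No paired analysis was possible because there is 1 group. Read depth is unknown, so a site missing in replicate 3, which had the fewest peaks, was not detected there and cannot be called closed.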
